A study of Mus musculus with 6 samples.

Results

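The interferon system was represented by 52 genes, chosen by symbol: the interferon receptor subunits, STAT factors, the interferon regulatory factors (IRFs) with their IRF2-binding partners, the RNA sensors, and the interferon-induced families *Ifitm*, *Ifit*, *Oas*, *Gbp*, *Isg* and *Ifi* with *Bst2*, *Mx2*, *Rsad2* and *Usp18*. They are 52 of the 16300 genes in the deposited table, and all 52 were abundant enough to be tested. RNA-seq had been performed on primary mouse granulosa cells (GCs) in 6 libraries, 3 of control cells and 3 of cells treated for 24 h with 25 nM dihydrotestosterone (DHT), an androgen that cannot be turned into estrogen. Every library came from wild type C57BL/6J mice aged 8 to 9 weeks, and by the study's methods each one pooled the GCs of 5 mice, which were cultured for 48 h and starved of serum for 4 h before treatment in serum-free medium. The labels give the treatment of each sample separately but describe RNA taken from the whole ovary, and their free text names DHT for the control samples too. The comparison asked which of these genes differed between DHT and control GCs, and how the *Ifitm* genes stood against the others.

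Interferons are secreted proteins that bind receptors on the cell surface. The receptors activate JAK kinases, which phosphorylate STAT factors. STAT factors join IRF9 on the interferon-stimulated response element (ISRE), and STAT pairs bind the gamma-activated site (GAS). The genes that follow encode proteins that sense viral RNA, cut or bind it, or block the entry and release of viruses. In the ovary, GCs are the somatic cells around the oocyte and are not immune cells, but like most cells they carry interferon receptors.

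The libraries held between 36111177 and 41928585 reads counted on genes. Of 15 GC markers 14 had a row, and their summed normalized count was 365701, 376512 and 382219.9 in control and 411139, 417978 and 417491 in DHT, all 3 DHT libraries being above the control libraries. The largest increases were those of *Cyp11a1* (mean 87825 in control, 123349 in DHT) and *Serpine2* (62679 and 83603), while *Inha* (54181 and 35515) and *Kitl* (10576 and 5827) decreased. Log2 fold changes were negative for 8 of the 14, with a median of -0.04, against 51.2% and -0.01 of all genes. Of these 14, at an adjusted p of at most 0.05 in limma, 3 were higher (*Cyp11a1*, *Hsd17b1* and *Serpine2*) and 3 lower (*Kitl*, *Inha* and *Foxl2*). These are 21.4% in each direction, against 6.52% of all genes higher and 4.66% lower. With replicate number as a block in limma, 5 of the 14 passed, as *Foxl2* did not (adjusted p = 0.133). The sum was 473 to 756 per library for 11 macrophage and dendritic cell markers. *Ptprc*, which marks all leukocytes, had 5.94, 8.36 and 11.1 in control and 15.7, 12.0 and 15.2 in DHT, without overlap, and did not pass (log2 fold change 0.72, adjusted p = 0.215). Only 1 of 13 lymphocyte and granulocyte markers (*Cd79a*) had a row. DHT replicate 2 stood apart in its oocyte transcripts. The sum of 8 oocyte markers was 867, 375 and 386 in the control libraries and 614, 112 and 642 in the DHT libraries, lowest in DHT replicate 2. Without *Ddx4*, the only one of the 8 that was not lowest there, it was 785, 307 and 299 in control and 536, 39.3 and 556 in DHT. *Zp3*, a protein of the egg coat, was at 0 in DHT replicate 2, where 3 reads would be 3.27 normalized counts.

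Of the 52 genes, 9 passed the test: 6 were higher in DHT (*Ifitm1*, *Ifi202b*, *Bst2*, *Isg20*, *Oasl2* and *Irf2bpl*) and 3 were lower, *Irf1* and *Ddx58* among them. The test was limma on log2(normalized count + 1), two-sided, with p-values adjusted over 16292 genes and a threshold of 0.05. These are 17.3% of the 52 genes, 11.5% higher and 5.77% lower, where 11.2% of all genes tested passed in either direction, 6.52% higher and 4.66% lower. Of the 52, 2 also had an absolute log2 fold change above 1, *Ifitm1* and *Ifi202b*, where 1.31% of all genes passed both thresholds. The groups did not overlap for 9 genes that were higher and 9 that were lower, where 15.9% and 14.7% of all genes, 30.6% in either direction, behaved in this way. Log2 fold changes were negative for 32 of the 52 genes (61.5%), against 51.2% of all genes, and the median was -0.07 against -0.01. Blocked by replicate number, 7 of the 52 passed, where 6.08% of all genes did. Without DHT replicate 2 or without DHT replicate 3, 3 genes were higher (*Ifitm1*, *Bst2* and *Oasl2*) and 1 was lower, and only *Ifitm1* passed with an absolute log2 fold change above 1. Without control replicate 2, 1 was lower. The share of all genes that passed without a library is not given here, so fewer calls cannot be read as particular to these genes. Since these are bulk samples, fewer cells of a type and less RNA per cell cannot be told apart.

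**Figure D1:**
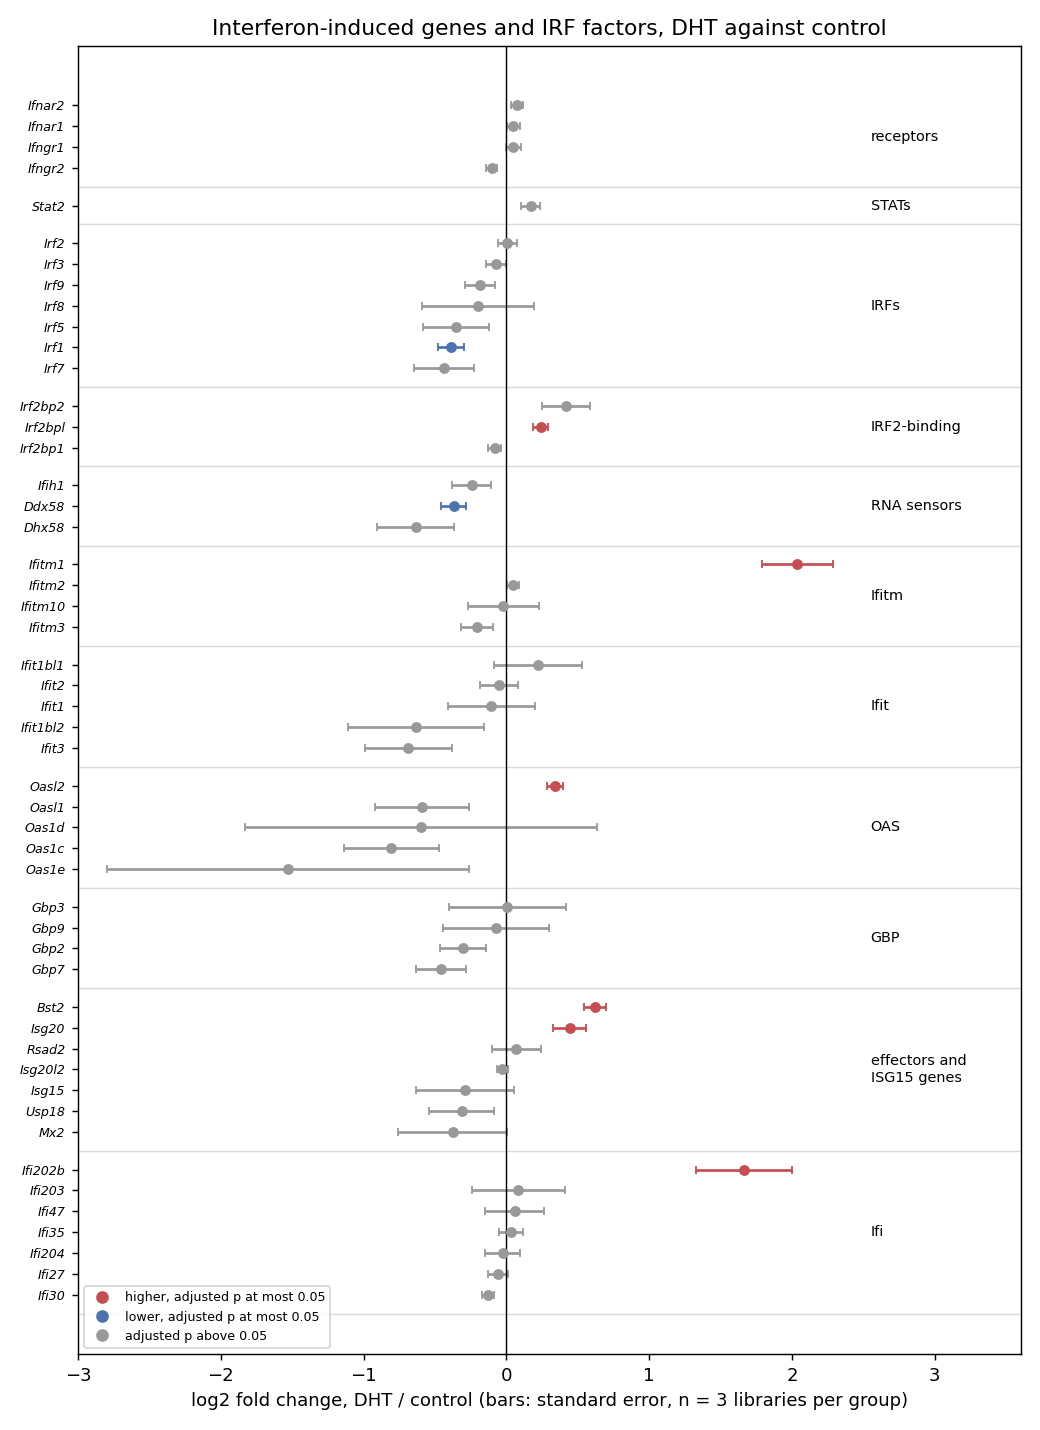
Log2 fold change of 50 of the 52 genes (x axis, DHT over control, on the log2(normalized count + 1) scale), grouped by role. Points are estimates from 3 libraries per group and bars are standard errors. The 6 red points passed the test higher in DHT and the 2 blue points lower, with *Ifitm1* and *Ifi202b* farthest to the right.

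The *Ifitm* genes encode small membrane proteins that keep viruses from fusing with the cell. *Ifitm1*, *Ifitm2* and *Ifitm3* lie side by side on chromosome 7 and *Ifitm10*, the most diverged of the 4, lies farther along the same chromosome. *Ifitm1* (ENSMUSG00000025491, chr7:140967221-140969825, plus strand, GRCm38) had 26.7, 21.4 and 15.7 normalized counts in control and 101, 68.7 and 100.1 in DHT, in the order of replicates 1, 2 and 3 as throughout. All 3 DHT libraries lay above all 3 control libraries, and the ratio of the means was 4.22. On the log2 scale *Ifitm1* rose by 2.04 (SE 0.25, 95% interval 1.47 to 2.60, n = 3 per group, adjusted p = 0.00119). It had the highest log2 fold change of the 52 genes.

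The genes beside *Ifitm1* did not pass the test. *Ifitm2*, whose transcription start is nearest and points the other way, had 3295, 3385 and 3524 in control and 3389, 3525 and 3628 in DHT. These values overlapped, with a log2 fold change of 0.05 (95% interval -0.05 to 0.14, adjusted p = 0.548). *Ifitm3* had 154, 159.8 and 162 in control and 148, 142 and 124 in DHT. Every DHT library lay below every control library, but the difference of -0.21 on the log2 scale did not pass (SE 0.11, adjusted p = 0.302). *Ifitm10* was low in every library, with 26.7, 30.7 and 22.2 in control and 24.5, 21.8 and 32.6 in DHT (log2 fold change -0.02, 95% interval -0.58 to 0.54, adjusted p = 0.969). Within 100 kb of *Ifitm1*, 7 other genes were tested and 0 passed, with log2 fold changes from -0.21 (*Ifitm3*) to 0.25 (*Gm15542*), and limma gave 0 of the 7 an unadjusted p under 0.05, which 25.2% of all genes tested had.

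Per kb of exon, *Ifitm2* was by far the most abundant of the 4, with a mean level of 5193 normalized counts per kb in control and 5365 in DHT. *Ifitm3* followed with 234 and 203 per kb, *Ifitm1* with 19.5 and 82.2, and *Ifitm10* with 5.54 and 5.49. *Ifitm1* thus stayed below *Ifitm3* per kb after DHT, and the order of the 4 genes was the same in both groups.

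**Figure D2:**
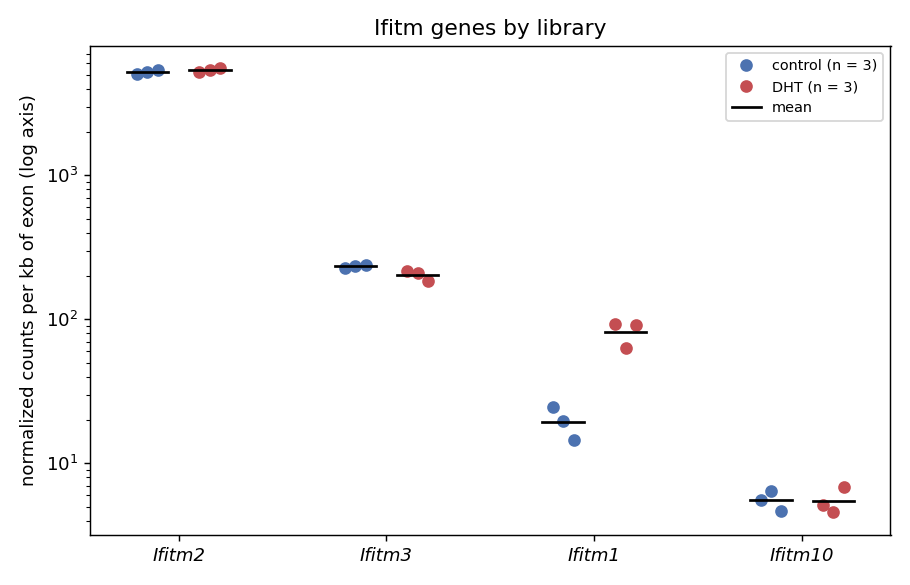
Level of the 4 *Ifitm* genes (y axis, normalized counts per kb of exon, log axis) in each of the 3 control and 3 DHT libraries, with the mean of each group as a line. *Ifitm1* moved from a mean of 19.5 to 82.2, and the other 3 genes did not pass the test.

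The sequences before the starts of the clustered *Ifitm* genes and of *Bst2*, the member with the second smallest adjusted p, are given to show which of them hold an interferon element. They are from RefSeq (GRCm38.p6), are read 5′ to 3′ on the strand of the gene within the 250 bases before the RefSeq start, and stop before the first annotated exon base. Capitals mark the ISRE letters, a pair of GAAA with 2 bases of any kind between them, searched on both strands.
Ifitm1, chr7:140967826-140968027, plus strand: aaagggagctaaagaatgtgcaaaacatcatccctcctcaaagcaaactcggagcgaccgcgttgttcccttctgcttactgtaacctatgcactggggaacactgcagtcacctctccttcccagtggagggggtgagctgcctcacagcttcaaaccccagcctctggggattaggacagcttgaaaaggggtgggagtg
Ifitm2, chr7:140955988-140956211, minus strand: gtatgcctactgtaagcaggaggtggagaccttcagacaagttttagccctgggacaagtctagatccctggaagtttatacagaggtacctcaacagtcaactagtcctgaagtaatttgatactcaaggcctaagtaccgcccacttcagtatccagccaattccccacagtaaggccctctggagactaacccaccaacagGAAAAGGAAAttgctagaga
Ifitm3, chr7:141010771-141010994, minus strand: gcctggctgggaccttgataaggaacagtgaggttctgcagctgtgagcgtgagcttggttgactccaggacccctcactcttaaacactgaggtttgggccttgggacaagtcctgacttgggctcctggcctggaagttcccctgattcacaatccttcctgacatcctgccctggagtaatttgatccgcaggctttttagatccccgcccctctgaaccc
Bst2, chr8:71537473-71537722, minus strand: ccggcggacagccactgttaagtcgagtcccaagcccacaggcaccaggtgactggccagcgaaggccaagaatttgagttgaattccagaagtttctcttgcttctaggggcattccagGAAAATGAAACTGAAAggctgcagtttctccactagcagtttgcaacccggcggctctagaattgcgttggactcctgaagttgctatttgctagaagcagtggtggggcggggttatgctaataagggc
The *Ifitm2* sequence holds 1 ISRE, beginning 46 bases before the RefSeq start, and the *Bst2* sequence holds 2 that overlap, beginning 130 and 124 bases before it. These letters were not in the windows of *Ifitm1* and *Ifitm3*. A longer annotated transcript of *Ifitm1* starts upstream, so that its window lies in an intron of that transcript.

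A promoter window was at hand for 42 of the 52 genes. ISRE letters were in the window of 15 of the 42 (35.7%), and in 29.6% of their 54 windows against 2.98% of all 32851 RefSeq windows of the same length. The GAS letters, TTC and GAA with 3 bases between them, were in the window of 10 (23.8%), and in 18.5% of windows against 7.02% of all. The androgen response element, searched as GNACA and TGTNC with 3 bases between them, was in 0 of the 54 windows and in 0.387% of all. With so low a share of all windows, the 0 says nothing about these genes. Sequence beyond the 250 bases was not searched. Of the 9 genes that passed the test 8 had a window. The ISRE was in 1 of these (*Bst2*) and the GAS in 4 (*Ifi202b*, *Isg20*, *Bst2* and *Irf1*), that of *Bst2* overlapping its ISREs. The bases after the RefSeq start lay in a GENCODE transcript of the gene for 39 of the 54 windows. For *Bst2*, *Ifi202b*, *Oasl2*, *Irf2bpl* and 1 window of *Irf1* they did not. A match is a description of letters only.

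Set against the other 48 genes, the *Ifitm* group was higher in the DHT libraries when *Ifitm1* was counted and overlapped between groups when it was not. The median log2 fold change was 0.01 over the 4 *Ifitm* genes and -0.08 over the other 48, of which 30 were negative (62.5%) and 8 passed the test, 5 higher and 3 lower. As a measure per library, the mean deviation of the *Ifitm* genes from their gene means minus that of the others was -0.22, -0.28 and -0.37 on the log2 scale in control and 0.22, 0.31 and 0.34 in DHT. All 3 DHT libraries lay above all 3 control libraries in this measure. When *Ifitm1* was left out, the difference was -0.05, -0.00 and -0.03 in control and -0.09, 0.12 and 0.05 in DHT, and the groups overlapped. *Oas1d* and *Oas1e*, both at 0 in DHT replicate 2, weigh on the value of that library. Set against the other genes without these 2, a comparison chosen after the values were seen, the difference was -0.16, -0.26 and -0.39 in control and 0.27, 0.14 and 0.40 in DHT with *Ifitm1*, and 0.01, 0.01 and -0.05 in control and -0.04, -0.04 and 0.11 in DHT without it.

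Of the 4 receptor subunits 0 passed the test, while limma gave 1 of them an unadjusted p under 0.05, a share near the 25.2% of all genes. *Ifnar1*, of the type I receptor, had 4799.8, 4698 and 5154 normalized counts in control and 5225, 5032 and 4900.5 in DHT (log2 fold change 0.05, 95% interval -0.05 to 0.15). Its partner *Ifnar2* had 1257, 1308 and 1280.3 in control and 1334, 1354 and 1361 in DHT (log2 fold change 0.07, interval -0.02 to 0.17), with no overlap between the groups. Neither type I subunit passed. For the type II receptor, *Ifngr1* had 744, 789.9 and 758 in control and 800.5, 799 and 772 in DHT (log2 fold change 0.05, interval -0.07 to 0.17). *Ifngr2* was the member with the unadjusted p under 0.05, at 2922, 3066 and 3094 in control and 2734, 2883 and 2836 in DHT, a log2 difference of -0.10 (adjusted p = 0.152). The bounds of all 4 intervals lay within 0.20 of 0 on the log2 scale.

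*Stat2*, a transcription factor of type I signalling, had 578, 577 and 598 in control and 682, 682 and 611 in DHT, all 3 DHT libraries being above the control libraries, but it did not pass (log2 fold change 0.17, SE 0.07, adjusted p = 0.141).

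Of the 8 IRF genes, *Irf1* fell and 7 did not pass, a share near the 11.2% of all genes that passed. *Irf1*, which encodes an activator that interferon gamma induces, had 347, 395 and 348 in control and 256, 279 and 296 in DHT. The groups did not overlap and the log2 fold change was -0.39 (SE 0.09, adjusted p = 0.0268). It did not pass without control replicate 2 or without any 1 of the DHT replicates (adjusted p up to 0.0887). *Gm17334* overlaps it on the opposite strand, and the NEBNext Ultra RNA kit named in the labels does not mark strand, so reads of the pair cannot be told apart. The same limit holds for other members with such an overlap, among them *Irf3*, *Irf5*, *Irf7*, *Irf2bp2*, *Oas1c*, *Oasl1*, *Usp18*, *Isg20l2*, *Ifi30* and *Ifi35*. Some, such as *Irf9*, *Ifnar2*, *Ifitm2* and *Ifitm10*, share exon bases with a gene on the same strand. *Irf2*, which encodes an antagonist of IRF1, had 677, 739.7 and 669 in control and 721, 662 and 711 in DHT, with a difference of 0.01 (95% interval -0.14 to 0.15).

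The IRFs that switch on interferon genes after a virus is sensed were not called. *Irf3* had 1547, 1603 and 1393 in control and 1359, 1404 and 1554 in DHT (log2 fold change -0.07, adjusted p = 0.56). *Irf7*, itself interferon-induced, had 54.4, 68.8 and 57.4 in control and 55.8, 42.5 and 35.9 in DHT (log2 fold change -0.44, SE 0.21, adjusted p = 0.236). Only DHT replicate 1 of *Irf7* reached the control range. *Irf5*, which acts below Toll-like receptors, had 36.6, 59.5 and 49.1 in control and 43.1, 31.6 and 37.0 in DHT (log2 fold change -0.35, adjusted p = 0.391). *Irf9*, the partner of STAT factors, had 358, 419 and 324 in control and 322, 341 and 303 in DHT (log2 fold change -0.18, adjusted p = 0.323). The sign was negative for 6 of the 8 IRF genes, against 51.2% of all genes.

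*Irf8*, a factor of myeloid cells, had the lowest level per kb of the 52 genes, with 9.89, 12.1 and 13.0 in control and 14.7, 12.0 and 5.44 in DHT normalized counts (log2 fold change -0.20, 95% interval -1.08 to 0.68).

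The IRF2-binding proteins are co-factors of IRF2. *Irf2bpl*, also known as *Eap1* and for its part in the hypothalamic control of puberty, rose. It had 5855, 5549.7 and 5864 in control and 6361, 6809 and 7263 in DHT, without overlap (log2 fold change 0.24, SE 0.05, adjusted p = 0.0182). It did not pass without control replicate 2, DHT replicate 2 or DHT replicate 3 (adjusted p up to 0.0702). *Irf2bp2* had 2349.9, 2478 and 3982 in control and 4077, 3801 and 3576 in DHT. Control replicate 3 lay among the DHT libraries and the other 2 control libraries lay well below them, and the log2 fold change of 0.42 did not pass (SE 0.17, adjusted p = 0.159). Without control replicate 3 it was 0.66 with an adjusted p of 0.000211. *Irf2bp1* had 1961, 2036 and 1837 in control and 1879.8, 1825 and 1800.0 in DHT (log2 fold change -0.08, adjusted p = 0.332).

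All 3 RNA sensors had negative log2 fold changes, and 1 passed, where 51.2% of all genes were negative and 4.66% passed lower. *Ddx58*, which encodes RIG-I, fell from 531, 507 and 477 in control to 413, 415 and 349 in DHT. The groups did not overlap (log2 fold change -0.37, SE 0.09, adjusted p = 0.0279). Its call was lost without control replicate 1 or 2 or DHT replicate 2 or 3 (adjusted p up to 0.0928). *Ifih1*, which encodes MDA5, had 170.2, 159.8 and 142 in control and 153, 120.0 and 126 in DHT (log2 fold change -0.24, adjusted p = 0.299). *Dhx58*, which encodes LGP2 and modulates both, was low, at 26.7, 21.4 and 29.6 in control and 15.7, 20.7 and 13.1 in DHT. Its groups did not overlap either, but the difference of -0.63 had an SE of 0.27 (adjusted p = 0.183).

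None of the 5 *Ifit* genes, whose proteins bind foreign RNA, passed the test in limma, nor had any an unadjusted p under 0.05 (0 of 5, against 25.2% of all genes). *Ifit2* was the most abundant of them per kb, with 216, 272 and 309 normalized counts in control and 252, 242 and 267 in DHT (log2 fold change -0.05, 95% interval -0.35 to 0.24). *Ifit3* had 37.6, 22.3 and 20.4 in control and 13.7, 19.6 and 14.1 in DHT, lower in every DHT library (log2 fold change -0.69, SE 0.30, adjusted p = 0.2). *Ifit1*, *Ifit1bl1* and *Ifit1bl2* stayed at or below 33.6 normalized counts in every library, and their intervals reached from -1.71 (*Ifit1bl2*) to 0.92 (*Ifit1bl1*).

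Among the 5 *Oas* genes, whose family makes a messenger of antiviral RNA decay, 1 rose (*Oasl2*), where 6.52% of all genes passed higher. With so few genes, 1 call does not set the family apart from that share. *Oasl2* had 1101, 1058 and 1009.8 in control and 1327, 1286 and 1397 in DHT, without overlap (log2 fold change 0.34, SE 0.05, adjusted p = 0.00421). *Oasl1*, which encodes a relative known to repress IRF7, had 18.8, 25.1 and 27.8 in control and 16.6, 21.8 and 9.79 in DHT (log2 fold change -0.59, adjusted p = 0.307).

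*Oas1c*, *Oas1d* and *Oas1e* were each lowest in DHT replicate 2. *Oas1d*, which is known for its expression in oocytes, had 32.7, 14.9 and 4.63 in control and 22.5, 0 and 35.9 in DHT. *Oas1e* had 58.4, 31.6 and 25.0 in control and 46.0, 0 and 43.5 in DHT. Both were at 0 in DHT replicate 2, the library with the lowest oocyte markers, and among the control libraries both were highest in replicate 1, which had the highest oocyte marker sum. *Oas1c* had 59.4, 36.2 and 47.2 in control and 27.4, 16.4 and 40.3 in DHT, lowest in the same DHT library. The log2 fold changes were -0.60 for *Oas1d* (SE 1.23) and -1.53 for *Oas1e* (SE 1.27) with all libraries, and 1.03 and 0.31 without DHT replicate 2, so the direction turned. For *Oas1d* the negative value with all libraries also ran against the group means, which were 17.4 in control and 19.5 in DHT. For *Oas1c* the value went from -0.80 (adjusted p = 0.168) to -0.48. The part of oocyte RNA in these values was not tested.

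**Figure D3:**
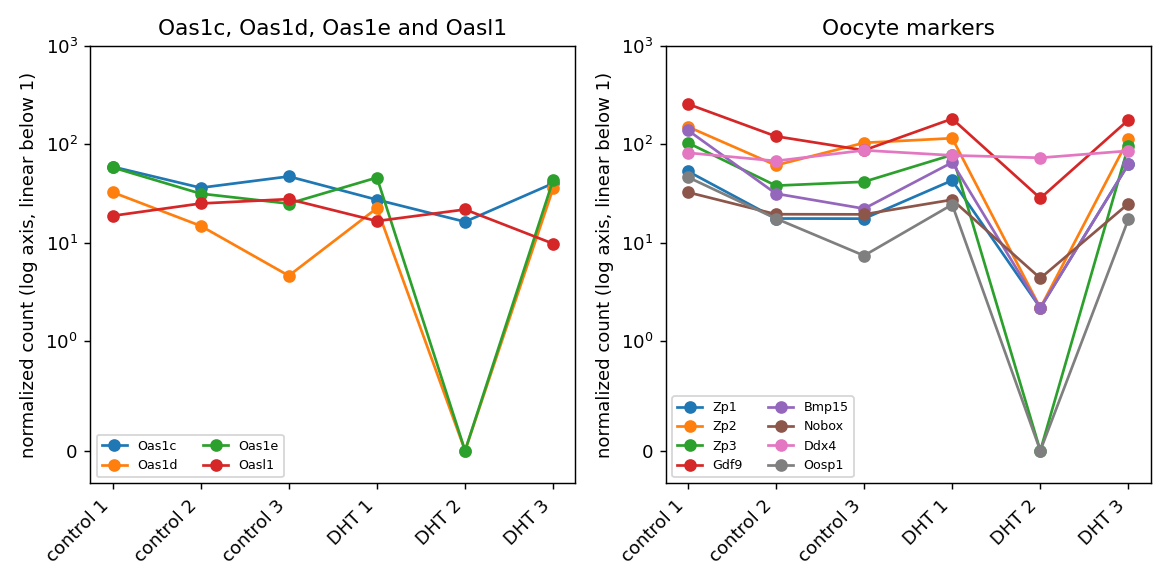
Normalized counts (y axis, log axis that is linear below 1) of *Oas1c*, *Oas1d*, *Oas1e* and *Oasl1* (left) and of 8 oocyte markers (right) in each library, with lines joining the values of a gene. *Oas1d*, *Oas1e*, *Zp3* and *Oosp1* are at 0 in DHT replicate 2, whereas *Oasl1* and *Ddx4* are at 21.8 and 73.1 there.

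The 4 guanylate-binding protein genes, GTPases that gather on vacuoles with pathogens, had 0 calls in limma and 1 unadjusted p under 0.05, again near the 25.2% of all genes. That was *Gbp7*, with 90.0, 75.3 and 92.6 in control and 69.5, 67.6 and 51.1 in DHT, lower in all 3 DHT libraries (log2 fold change -0.46, SE 0.18, adjusted p = 0.144). *Gbp2*, the most abundant of them per kb, had 170.2, 191 and 169 in control and 176, 113 and 146 in DHT (log2 fold change -0.30, adjusted p = 0.282). The groups overlapped for *Gbp2*. *Gbp3* had 11.9, 37.2 and 16.7 in control and 16.6, 26.2 and 17.4 in DHT (log2 fold change 0.01, 95% interval -0.91 to 0.93), with control replicate 2 the highest of all libraries. *Gbp9* lay between 6.53 and 14.2 and overlaps the exons of *Gbp4* and *Gbp8*.

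*Bst2* and *Isg20* rose among the 7 other antiviral effectors and *ISG15* genes, 28.6% of them, where 6.52% of all genes passed higher. *Bst2* encodes tetherin, which holds budding viruses on the cell surface, and it was the most abundant of the 52 genes per kb. It had 4614, 5292 and 4469 normalized counts in control and 6643, 7449.6 and 8009 in DHT. All 3 DHT libraries were above the highest control library, and the log2 fold change was 0.62 (SE 0.08, 95% interval 0.44 to 0.80, n = 3 per group, adjusted p = 0.00141), a ratio of 1.54. *Isg20*, which encodes an RNA exonuclease, had 164, 159.8 and 177 in control and 202, 230.2 and 252 in DHT. The groups did not overlap (log2 fold change 0.44, SE 0.11, adjusted p = 0.0372). The call of *Isg20* was lost without control replicate 1 or 2 or DHT replicate 2 or 3 (adjusted p up to 0.148). Its relative *Isg20l2*, which works in ribosome assembly, had 1733, 1782 and 1771 in control and 1719, 1709 and 1749 in DHT (log2 fold change -0.03, 95% interval -0.12 to 0.06).

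The genes often used as a readout of interferon signalling had low counts. *Isg15*, a ubiquitin-like protein, had 12.9, 11.2 and 18.5 in control and 12.7, 14.2 and 7.62 in DHT (log2 fold change -0.29, SE 0.34, adjusted p = 0.654). *Usp18*, the protease that removes it, had 39.6, 54.8 and 37.1 in control and 28.4, 39.3 and 37.0 in DHT (log2 fold change -0.31, adjusted p = 0.446). *Rsad2*, which encodes viperin, had 54.4, 53.9 and 70.4 in control and 65.6, 61.1 and 59.9 in DHT (log2 fold change 0.07, adjusted p = 0.843). The groups overlapped for all 3. *Mx2*, a GTPase, had 12.9, 23.2 and 24.1 in control and 20.5, 8.73 and 17.4 in DHT (log2 fold change -0.38, adjusted p = 0.598).

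Of the 7 *Ifi* genes 1 passed (14.3%, near the 11.2% of all genes), and this was *Ifi202b*. It belongs to the DNA-binding p200 family (ENSMUSG00000026535, chr1:173962568-173982744, minus strand). It had 12.9, 30.7 and 13.0 in control and 48.9, 60.0 and 63.1 in DHT, and the lowest DHT library was above the highest control library, which was replicate 2. *Ifi202b* rose by 1.66 on the log2 scale (SE 0.33, 95% interval 0.91 to 2.42, adjusted p = 0.0133), a ratio of means of 3.05. Without DHT replicate 2 or DHT replicate 3 its log2 fold change was 1.63 and 1.59, and it did not pass (adjusted p = 0.0554 and 0.0673).

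The relatives of *Ifi202b* beside it on chromosome 1 did not pass. *Ifi203* had 10.9, 17.7 and 10.2 in control and 16.6, 10.9 and 13.1 in DHT (log2 fold change 0.08, 95% interval -0.65 to 0.82) and shares exons with *Mndal*. *Ifi204* had 289, 361 and 271 in control and 281, 285 and 335 in DHT (log2 fold change -0.03, 95% interval -0.31 to 0.25). The genes of this family resemble each other, and the authors counted uniquely mapped reads only. *Ifi30*, a thiol reductase of the lysosome, had 1838, 1891 and 1901 in control and 1755, 1693 and 1699 in DHT, lower in every DHT library but short of the threshold (log2 fold change -0.13, SE 0.04, adjusted p = 0.0743). *Ifi27*, *Ifi35* and *Ifi47* had log2 fold changes of -0.06, 0.03 and 0.06 with overlapping groups.

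**Figure D4:**
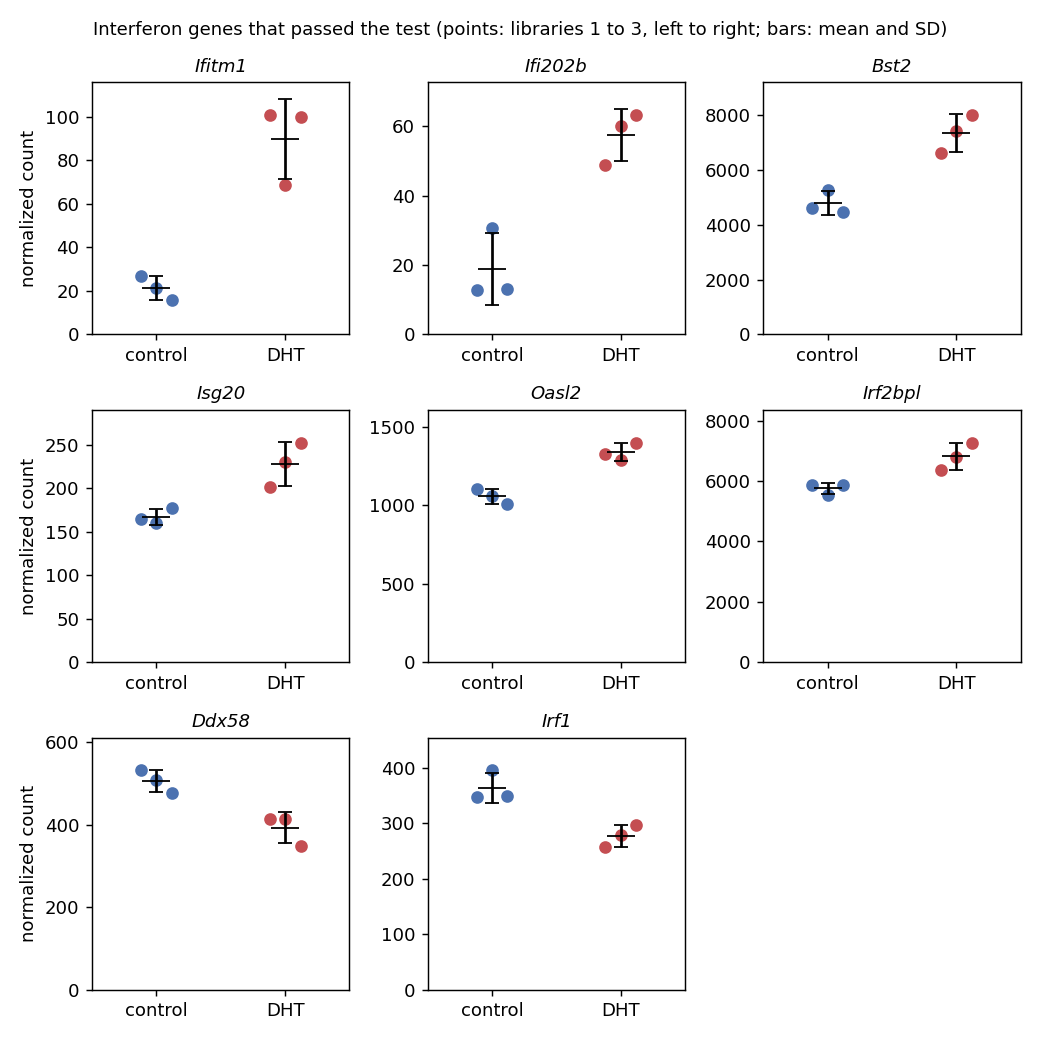
Normalized count (y axis, from 0) of 8 of the 9 genes that passed the test in control and DHT libraries. Points are the 3 libraries of each group in the order of their numbers, bars show the mean and SD, and the groups do not overlap in any panel.

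Over the 35 interferon-induced genes, from the sensors to the *Ifi* family, 5 were higher (14.3%, against 6.52% of all genes), 1 was lower (2.86%, against 4.66%) and 23 had negative log2 fold changes (65.7%, against 51.2%). The summed normalized count of all 52 genes was nonetheless higher in DHT, with means of 42373 in control and 46482 in DHT. *Bst2*, *Irf2bpl*, *Irf2bp2* and *Oasl2* together made a difference of 4792, of which *Bst2* gave 2576, and the other 48 genes together gave -682. The named genes were picked from these same values as those with the largest increases. The sign of the remainder therefore depends on that choice and is no result about the other genes. *Irf2bp2* did not pass in limma (adjusted p = 0.159), and its groups overlapped. The remainder includes the *Ifitm* genes, so it is not the set of 48 genes outside *Ifitm*. The highest value of a gene lay in control replicates 1, 2 and 3 for 7, 16 and 10 genes and in DHT replicates 1, 2 and 3 for 6, 2 and 11. The lowest value lay in them for 10, 6 and 6 genes in control and for 7, 12 and 11 in DHT.

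**Figure D5:**
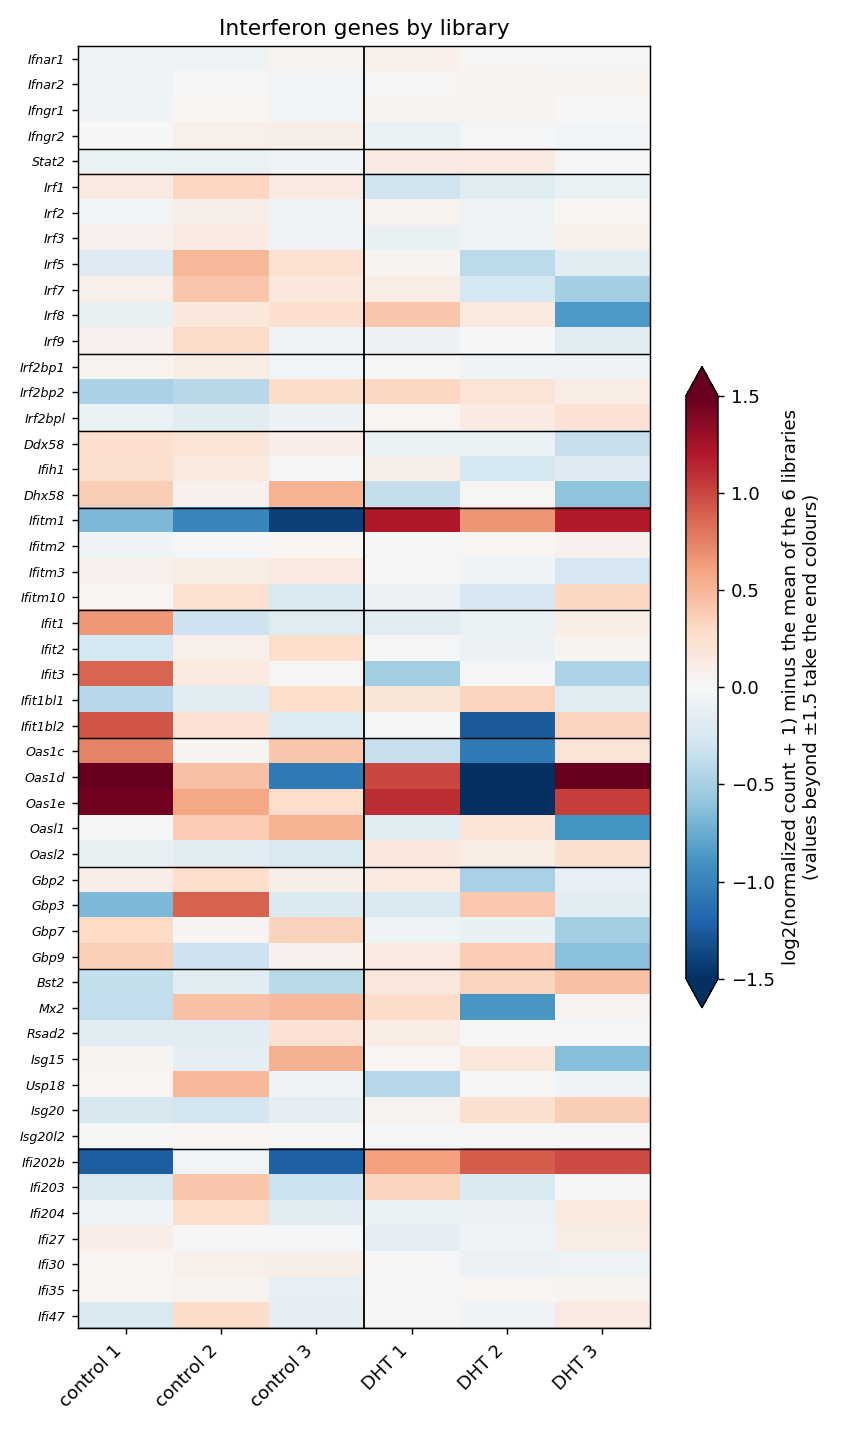
Deviation of 50 of the 52 genes from the mean of each over the 6 libraries (colour, log2(normalized count + 1), values beyond 1.5 in either direction drawn at the end colours), by library. *Ifitm1* and *Ifi202b* separate control from DHT, while *Oas1d* and *Oas1e* separate DHT replicate 2 from the rest.

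A list of 79 other genes of the interferon pathway was counted in the same fit, and 66 of them were tested. Of the 66, 3 were higher in DHT and 8 were lower, 44 had negative log2 fold changes (66.7%) and the median was -0.08. The shares of 4.55% higher and 12.1% lower stand against 6.52% and 4.66% of all genes, of which 51.2% were negative with a median of -0.01. The 8 became 4 without control replicate 2, DHT replicate 2 or DHT replicate 3, and 5 without control replicate 1 or DHT replicate 1. The share of all genes that passed in these fits is not given here. The genes that fell had varied roles. *Lgals9*, which encodes galectin-9, had 409, 426 and 403 in control and 263, 259 and 255 in DHT (log2 fold change -0.67, SE 0.07, adjusted p = 0.000622). *Irgm1*, a GTPase of autophagy and pathogen defence, had 1028, 1205 and 1102 in control and 775, 703 and 728 in DHT (log2 fold change -0.59, SE 0.07, adjusted p = 0.00094). The groups did not overlap for either gene. Others, with their log2 fold changes, were *Lgals3bp* (-0.54), the kinase *Jak1* (-0.22), *Eif2ak2* (-0.26), which encodes the RNA-activated kinase PKR, *Parp9* (-0.38), and *Sp100* (-1.35), a gene with near-identical copies whose counts are therefore uncertain. With replicate number as a block in limma, *Jak1*, *Eif2ak2*, *Parp9* and *Sp100* did not pass (adjusted p = 0.0689, 0.0509, 0.0993 and 0.108).

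The 3 genes that rose included 2 of antigen presentation. *H2-K1*, a class I heavy chain, had 1952, 1886 and 1983 in control and 2652, 2873 and 2787 in DHT (log2 fold change 0.51, SE 0.04, adjusted p = 0.000199). *Tapbp*, which encodes tapasin and loads peptides on class I, had 2889, 2742 and 2938 in control and 3413, 3776 and 3609.8 in DHT (log2 fold change 0.33, adjusted p = 0.00269). Both were higher in every DHT library. *Samhd1*, which breaks down nucleotides needed by viruses, had 5388, 5736 and 6158 in control and 6920.3, 7101 and 6679.8 in DHT (log2 fold change 0.26, adjusted p = 0.0122). The class I partners *B2m* and *H2-D1* (log2 fold changes 0.05 and -0.16) and the transporters *Tap1* and *Tap2* (-0.03 and 0.03) did not pass. The interferon genes *Ifnb1*, *Ifng*, *Ifnk*, *Ifne* and *Ifnl2* were in the list but had no row here, and were therefore not tested.

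Macrophages of the ovary also express interferon-induced genes. Of their 11 markers 1 fell (*Csf1r*, 115, 92.9 and 98.2 in control and 71.4, 62.2 and 60.9 in DHT, adjusted p = 0.027). This is 9.09% of the 11, where 4.66% of all genes passed lower. With replicate number as a block in limma, *Csf1r* did not pass (adjusted p = 0.0654). The summed level of the 11 markers was 643, 710.0 and 606 in control and 756, 473 and 538 in DHT, and the groups overlapped. Log2 fold changes were negative for 8 of the 11 (72.7%), with a median of -0.41, against 51.2% and -0.01 of all genes, and *Ptprc* was among the 3 that were positive. *Acta2* and *Myh11*, contractile genes in the list of theca and stroma markers, rose (log2 fold changes 0.76 and 0.67). The other 5 of the 7 tested did not pass, with log2 fold changes from -1.05 (*Dcn*) to 0.21 (*Pdgfrb*), and 4 of the 7 were negative with a median of -0.13. The defining theca genes *Cyp17a1* and *Insl3* had no row here. Endothelial, oocyte and epithelial markers had 0 calls among 5, 8 and 9 tested, with 1, 0 and 2 of these at an unadjusted p under 0.05 in limma, against 25.2% of all genes. The part of other cell types in the values of the interferon genes was not tested.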

How the data were processed

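RNA was sequenced in 6 libraries of cultured mouse GCs, 3 control and 3 DHT. By the submitters' processing notes and the study's methods, reads were trimmed (Trimmomatic 0.36), aligned to GRCm38 (STAR 2.5.2b) and, where uniquely mapped, counted in exons (featureCounts of Subread 1.5.2). The signal deposited by the authors is a normalized count, that is, reads per gene over the size factor that the authors computed in DESeq2. Each value was a whole multiple of 1 step per library within 0.02 reads for 100% of values, which gave the read totals of 36111177 to 41928585. The log2 fold changes and the p-values that the authors deposited, and the authors' table of called genes, are their own comparison and were not used. The strand setting of the counting is not given in the sources used here.

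Groups were taken from the treatment characteristic of each sample. Genes with a mean of at least 10 normalized counts (16292) entered limma 3.58.1 (R 4.3.3) as log2(value + 1). The fit had an intensity trend, p-values were adjusted by Benjamini-Hochberg, and the threshold was an adjusted p of 0.05. The added 1 pulls the fold changes of low genes towards 0. As differences between means of log values, they can also exceed or oppose the ratio of the group means where 1 library is at 0. The p-values measure the spread between 3 pools per group, and an exact permutation test of 3 against 3 cannot give a p below 0.1. On counts simulated for 16162 genes the fit recovered 197 of 200 changed genes with 5 false calls. Positions and exonic lengths are from GENCODE for GRCm38. The 52 genes and all lists were chosen with earlier results of these data known. Named with values were the genes past the threshold, the *Ifitm*, receptor, STAT and IRF genes, and in each other family those with the highest and lowest fold change and the highest mean. A few members and listed genes are counted but not reported here by name. Other members were named after their values were seen. Alternatives were pseudocounts of 0.5 and 8, no filter, a mean of at least 50, no intensity trend, the replicate block and each library left out in turn, and quantile normalization was added after the data were seen.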

Additional observations from a re-analysis of the deposited data

How the results depend on the processing

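Under 13 alternatives, *Ifitm1*, *Oasl2* and *Bst2* passed the test in all 13, and none of the 9 genes that passed changed direction. Without an intensity trend, 3 of the 52 genes were higher, 1 was lower, 1 passed with an absolute log2 fold change above 1, and 3 of the pathway list were lower. With a mean of at least 50, at which *Ifi202b* was not tested, 1 gene passed with a change above 1 and the median of the 48 genes outside *Ifitm* was -0.030. With the replicate block, 5 genes were higher and 2 lower, as *Isg20* and *Irf1* did not pass (adjusted p = 0.0801 and 0.0731), 3 of the pathway list were lower, and 990 of all genes passed. The replicate numbers were not treated as pairs, since same-numbered libraries correlated at 0.0058, 0.067 and -0.24 in their deviations.

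Leaving out each library in turn gave 3 to 7 genes higher, 1 to 3 lower, 1 to 2 with a change above 1, and 1 to 1 of *Ifitm*. The median was -0.05 to 0.07 for *Ifitm* and -0.11 to -0.05 for the others, and 2 to 4 of the pathway list were higher and 4 to 7 lower. Apart from the replicate block, the share of all genes that passed under an alternative is not given here. Changes in the number of calls therefore cannot be read as particular to these genes. Log2 fold changes that changed sign, none of a gene that passed, ranged from -0.021 to 0.052 for *Irf2*, -0.46 to 0.18 for *Irf8*, -0.18 to 0.0995 for *Ifitm10*, -0.29 to 0.19 for *Ifit1*, -0.19 to 0.065 for *Ifit2*, -1.57 to 1.03 for *Oas1d*, -2.47 to 0.31 for *Oas1e*, -0.33 to 0.45 for *Gbp3*, -0.28 to 0.23 for *Gbp9*, -0.065 to 0.32 for *Ifi203*, -0.11 to 0.095 for *Ifi204*, -0.023 to 0.067 for *Ifi35* and -0.042 to 0.21 for *Ifi47*. *Gbp3* was also at -0.017 with a pseudocount of 8 and at -0.0024 with quantile normalization, which gave *Irf2* -0.0062 and *Oas1d* 0.20. Except for the filters, which change the genes tested, the cause of these shifts was not tested. Count models in edgeR and DESeq2 and TMM scaling were planned but not run.

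With 3 libraries per group, differences in genes at low counts were measured with wide intervals, such as those of *Irf8*, *Gbp3* and *Isg15*, and a call that was missed there does not show that the gene did not change.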
